A study of Mus musculus with 17 samples.

Results

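Long noncoding RNA from 3 imprinted loci of the mouse, Airn, Peg13 and Gnas, was followed in the ventricles of the newborn heart. The libraries came from male C57Bl/6 mice, taken as right (RV) or left (LV) ventricle on postnatal days 0, 3 and 7 (P0, P3 and P7). Each group held 3 libraries, except RV at P7, which held 2, and no group carried a mutation or a treatment. The tables list noncoding transcripts as rows, each with an ID, a position and a value taken to be FPKM, a fragment count divided by transcript length and by library depth. Members were all rows whose position overlaps 1 of 3 windows, which gave 30 of 23940 rows. The Airn window (chr17:12870000-13060000) held 18 rows at 11 positions, the Peg13 window (chr15:72630000-72645000) held 1 row, and the Gnas window (chr2:174090000-174180000) held 11 rows at 6 positions. Of these rows, 24 have IDs of the NONCODE database and 6 have TCONS IDs, the kind written by transcript assemblers. Positions are those of the files and were taken as mm9. The rows carry no gene names, so neither the gene labels nor the cell types of the ventricle could be checked against marker genes.

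In an imprinted locus, the copy inherited from one parent is transcribed and the other is silenced, and long noncoding RNAs are often part of that silencing. Airn is transcribed from the paternal copy, antisense to Igf2r, which encodes a receptor that clears insulin-like growth factor 2 and carries lysosomal enzymes. Peg13 is a paternally expressed noncoding RNA from within an intron of Trappc9, known mainly from brain. Gnas encodes the stimulatory G protein alpha subunit, which couples beta-adrenergic receptors to cyclic AMP in heart muscle, and Nespas is the paternal antisense transcript of the same cluster. The values are totals over both parental copies, so nothing below says which copy gave the RNA. In bulk tissue, fewer cells of a type and less RNA per cell cannot be told apart.

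Some spans and lengths matched the labels of the windows. For most rows, no annotated transcript was matched to the length behind the values. Among them were the Gnas window rows TCONS_00033850 (818 bases) and NONMMUT041640 (717 bases). The annotated transcript Gnas-219 has 817 summed exon bases, close to the length of TCONS_00033850 but not equal. In the GENCODE M21 annotation (mm10), Airn spans 118826 bases, and 6 rows of the Airn window share a span of 118872 bases (chr17:12934177-13053048). The length behind the values of one of them, NONMMUT028253, was 1375 bases, equal to the summed exons of the annotated transcript Airn-205. The Peg13 row (chr15:72636030-72640754) covers 4725 bases, as does Peg13-201. Row NONMMUT041634 (chr2:174106738-174120937) covers 14200 bases, equal to the annotated span of Nespas. From the low end of that row to both ends of the Gnas position that holds 6 rows (chr2:174153231-174163585), the distances were 46493 and 56847 bases. The same distances separate the low end of Nespas in GENCODE from the start of transcript Gnas-219 and from the end of Gnas-217. These 6 rows therefore lie, by spacing, within the protein-coding Gnas gene and can share reads with its mRNA. Likewise, Airn and Igf2r overlap in GENCODE over the first 28354 bases of Airn, and the low end of Mas1 lies 99768 bases from the Airn start. Libraries were strand-specific, but whether strand was used in counting is not given in the sources used here. Reads of overlapping genes on opposite strands may therefore not be separated. Peg13 and Trappc9 are annotated on the same strand, so even counting by strand would not separate unspliced Trappc9 reads from the Peg13 row.

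The start regions of the 2 loci with several rows are shown because imprinted promoters are classical sites of CpG methylation. RefSeq (GRCm38.p6) gives them as 250 bases before to 50 bases after the start, and capitals mark each CG, the motif searched, which reads the same on both strands. The table held Airn (chr17:12741061-12741360, plus strand), Igf2r (chr17:12769657-12769956, minus strand) and 4 Gnas starts, of which chr2:174327518-174327817 on the plus strand is shown.
Airn: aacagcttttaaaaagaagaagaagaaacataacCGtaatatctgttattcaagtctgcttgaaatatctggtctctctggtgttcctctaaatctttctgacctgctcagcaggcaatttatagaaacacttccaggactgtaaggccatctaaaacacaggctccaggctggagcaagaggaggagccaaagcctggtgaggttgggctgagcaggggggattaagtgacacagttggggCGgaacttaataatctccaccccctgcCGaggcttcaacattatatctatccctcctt
Igf2r: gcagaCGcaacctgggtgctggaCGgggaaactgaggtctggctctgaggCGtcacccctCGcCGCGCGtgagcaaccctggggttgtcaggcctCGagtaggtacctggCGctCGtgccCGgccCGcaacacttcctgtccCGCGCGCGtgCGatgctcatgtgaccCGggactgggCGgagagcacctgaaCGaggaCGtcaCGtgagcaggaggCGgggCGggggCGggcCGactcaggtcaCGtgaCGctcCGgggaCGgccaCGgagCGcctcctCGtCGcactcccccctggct
Gnas: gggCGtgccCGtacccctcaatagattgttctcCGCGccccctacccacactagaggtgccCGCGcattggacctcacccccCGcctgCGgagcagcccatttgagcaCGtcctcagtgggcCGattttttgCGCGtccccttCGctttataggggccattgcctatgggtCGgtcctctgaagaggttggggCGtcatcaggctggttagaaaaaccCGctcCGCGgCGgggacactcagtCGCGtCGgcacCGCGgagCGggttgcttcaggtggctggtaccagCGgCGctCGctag
The Airn window of 300 bases held 3 CG, and 76.7% of 32851 RefSeq promoters of that length held as many or more. For Igf2r the count was 34 CG, reached by 7.73% of promoters. For the Gnas start shown it was 28 CG, reached by 14.2%, and the other 3 Gnas starts held 16, 27 and 40. Over all promoters the median was 7 CG, and 94.6% held at least 1. These counts describe sequence only, since methylation was not measured, and CG beyond these 300 bases were not counted.

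Depth recovered from the values was 13.8 to 20.5 M fragments per library. A row was tested where at least 2 libraries reached 0.1 FPKM, which 11079 rows and 27 of the 30 members passed (17 Airn, 1 Peg13, 9 Gnas). A row was called at a Benjamini-Hochberg adjusted p under 0.05 in limma on log2(FPKM + 0.1), where log2 changes understate those of low rows. The replicates are biological per the labels. Whether LV and RV libraries came from the same hearts was not settled, and the fits take them as independent. In 6 libraries, a mitochondrial row (chrM:9203-9888) stood at 132 to 247 FPKM, and in the other 11 at 7.93 to 25.8 FPKM. The 6 high libraries were all from P0 and P3, with replicate 3 at P0 and replicates 1 and 3 at P3 in each ventricle. No P7 library was among them. The median of all rows tested also moved with age, by -0.29 on the log2 scale between P7 and P0 over both ventricles. Changes are read against that shift, but the limma p-values test each change against 0.

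The Airn locus fell between P0 and P7. Over both ventricles, 12 of 17 Airn rows tested were called lower at P7 than at P0 and 0 higher, against 16.1% of all rows called lower and 4.41% called higher. Their median log2 change was -1.01, and 16 of 17 lay below the median of all rows. After each library was scaled to the same median, 8 of 17 Airn rows were called lower, beside 5.95% of all rows lower and 7.57% higher (659 and 839 rows, against 1782 and 489 without scaling). All 5 P7 libraries lay below all 6 P0 libraries in 10 of 17 Airn rows, which held for 10.3% of all rows.

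The most abundant Airn row and 2 of its neighbours lay 80.5 to 87.17 kb from the low end of the span. NONMMUT028255 (chr17:13014682-13016805) stood at 22.3, 27.1 and 30 FPKM in RV at P0, 22.7, 20.8 and 18.8 at P3, and 6.99 and 12.7 at P7. The LV values were 20.6, 22.2 and 30.4 FPKM at P0, 17.5, 13.6 and 13.8 at P3, and 8.68, 11.2 and 8.78 at P7. Every P7 library was below every P3 and every P0 library, while P3 and P0 overlapped. The RV mean was 9.84 ± 4.04 FPKM at P7 (SD, n = 2) against 26.5 ± 3.92 at P0 (SD, n = 3), and the LV mean 9.54 ± 1.41 at P7 against 24.4 ± 5.27 at P0 (SD, n = 3 each). Over both ventricles the log2 change was -1.40 ± 0.15 (SE), a 2.64-fold lower level at P7 (limma adjusted p = 1.96e-06). This row rested on 185 to 821.5 fragments per library.

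NONMMUT028256, which shares that position, was lower in level, between 2.03 and 8.13 FPKM over all libraries. It fell by 1.13 on the log2 scale at P7 relative to P0 (limma adjusted p = 7.75e-05), with 2.03 to 4.31 FPKM in the 5 P7 libraries and 4.86 to 8.13 in the 6 P0 libraries. NONMMUT028257 (chr17:13018496-13021344) spanned 1.22 to 2.89 FPKM at P7 and 3.45 to 5.57 FPKM at P0. Its log2 change was -1.33 ± 0.21 (SE, limma adjusted p = 1.72e-04). In neither row did P7 overlap P0.

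Of the 6 rows on the whole span, 2 were above 1 FPKM on average. NONMMUT028254 stood at 8.48, 7.65 and 8.46 FPKM in RV at P0, 7.35, 5.42 and 6.88 at P3, and 1.97 and 3.46 at P7. LV held 9.06, 8.29 and 10.9 FPKM at P0, 7.27, 4.31 and 5.21 at P3, and 2.02, 2.08 and 3.06 at P7. The 3 ages did not overlap in this row. It had the lowest log2 change of the Airn rows, -1.78 ± 0.17 (SE), a 3.44-fold lower level at P7 than at P0 (limma adjusted p = 5.08e-07).

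NONMMUT028253, whose length equals that of Airn-205, stood at 7.30, 4.80 and 5.59 FPKM in RV at P0, 5.92, 3.67 and 6.77 at P3, and 2.39 and 3.53 at P7. The LV values were 8.59, 6.04 and 7.28 FPKM at P0, 4.36, 4.37 and 4.59 at P3, and 2.39, 2.82 and 3.04 at P7. P7 lay below both earlier ages, which overlapped each other. Its log2 change was -1.17 ± 0.17 (SE) between P7 and P0 (limma adjusted p = 6.59e-05).

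The other 4 rows of that span lay at or below 0.831 FPKM in every library. NONMMUT028250 fell by 1.12 on the log2 scale (limma adjusted p = 0.0039), with 0.0985 to 0.285 FPKM at P7 and 0.454 to 0.785 FPKM at P0. The ID NONMMUT028240 stands in 2 rows of different length, of which the more abundant, at 0.187 to 0.478 FPKM at P7 and 0.514 to 0.831 FPKM at P0, fell by 0.73 (limma adjusted p = 0.0362), a call lost under 12 of 27 alternatives. Its second row was above 0 in 5 of 17 libraries, on 6.5 fragments in all at the shortest length that fits. NONMMUT028249 had a log2 change of -0.79 ± 0.32 (SE) and was not called (limma adjusted p = 0.0868).

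**Figure D1:**
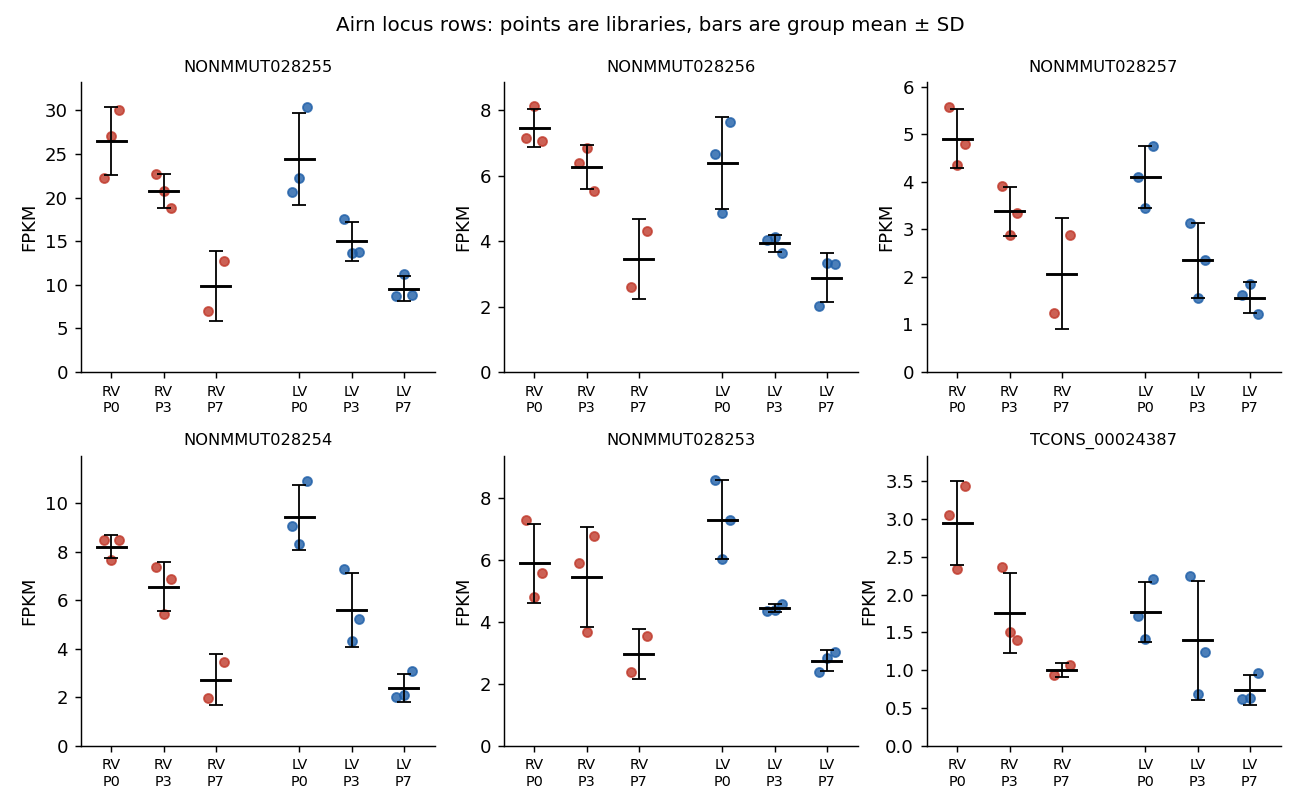
FPKM of 6 Airn locus rows in each library (points), with group means and SD (bars), for RV at P0, P3 and P7 (left, red) and LV at the same ages (right, blue). In NONMMUT028255 the 5 P7 libraries sit at 6.99 to 12.7 FPKM, below the 20.6 to 30.4 FPKM of the 6 P0 libraries.

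Several shorter rows along the locus were also called lower. TCONS_00024387 (chr17:12958956-12961791), 24.78 to 27.62 kb from the low end, stood at 3.05, 2.34 and 3.44 FPKM in RV at P0, 2.36, 1.51 and 1.40 at P3, and 0.936 and 1.07 at P7. In LV its values were 1.71, 1.41 and 2.20 FPKM at P0, 2.25, 0.688 and 1.24 at P3, and 0.615, 0.637 and 0.969 at P7. All P7 libraries were below all P0 libraries, and the P3 libraries reached into both ranges. The log2 change was -1.31 ± 0.24 (SE, limma adjusted p = 8.81e-04).

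Its neighbour TCONS_00024383 (chr17:12954192-12958760) fell by 1.35 on the log2 scale (limma adjusted p = 0.00218), with 0.289 to 0.692 FPKM at P7 and 0.782 to 2.30 FPKM at P0. NONMMUT028241 (chr17:12941161-12944859) fell by 1.01 (limma adjusted p = 0.0139), with overlapping ranges of 0.285 to 0.753 FPKM at P7 and 0.559 to 2.11 FPKM at P0. That call was lost under 2 of 27 alternatives, median scaling and leaving out RV replicate 1 at P7. TCONS_00024387, TCONS_00024383, NONMMUT028241 and NONMMUT028244 are the 4 short rows that end within 28354 bases of the low end. This is the length of the annotated overlap of Airn with Igf2r. Whether reads of Igf2r enter their values was not tested.

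Further along, NONMMUT028248 (chr17:12970230-12971495) fell by 0.95 on the log2 scale (limma adjusted p = 0.0111). Its ranges of 0.422 to 1.39 FPKM at P7 and 1.16 to 1.70 FPKM at P0 overlapped. The call was lost under 2 of 27 alternatives, median scaling and the low libraries alone. NONMMUT028251 (chr17:12992587-12994690) fell by 0.77 (limma adjusted p = 0.0477) at 0.0564 to 0.0888 FPKM at P7 and 0.104 to 0.369 FPKM at P0, on 1.5 to 12.5 fragments per library. Its call was lost under 18 of 26 alternatives, among them median scaling and both other pseudocounts (limma adjusted p up to 0.224). Besides NONMMUT028249 and the second NONMMUT028240 row, the rows not called were TCONS_00024371, TCONS_00024390 and NONMMUT028252, with log2 changes of -0.64, -0.55 and -0.41. NONMMUT028244 did not pass the filter, with 1.5 fragments in all.

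**Figure D2:**
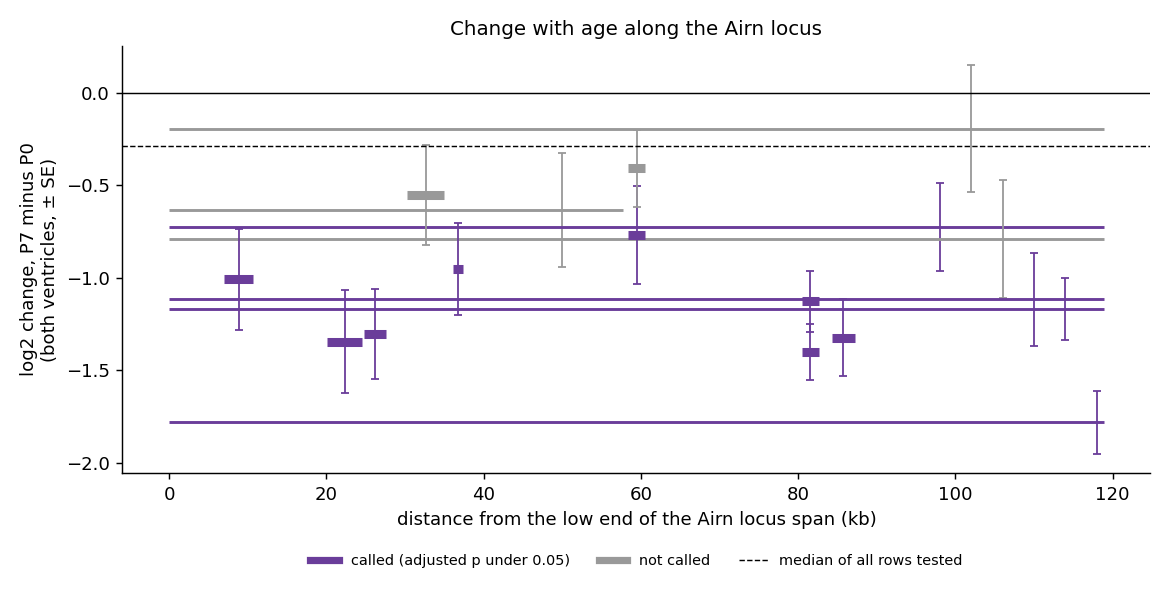
Log2 change between P7 and P0 over both ventricles for the 17 Airn rows tested, drawn at each row's place along the locus (kb from the low end of the span, thick bars for rows under 10 kb, thin lines for longer ones, error bars ± SE). All 17 rows lie below 0, and 16 lie below the dashed median of all rows at -0.29.

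Airn rows were called lower in both steps of the series. Between P3 and P0 over both ventricles, 3 of 17 Airn rows were called lower (3.57% of all rows), and between P7 and P3, 5 of 17 (3.55% of all rows). All P3 libraries lay below all P0 libraries in 1 of 17 Airn rows and 2 of 9 Gnas rows (2.27% of all rows), and all P7 libraries below all P3 libraries in 3 of 17 and 0 of 9 (3.54% of all rows). NONMMUT028254 and NONMMUT028255 were called in both steps. For NONMMUT028254 the log2 change was -0.55 ± 0.16 between P3 and P0 (SE, limma adjusted p = 0.0467) and -1.23 ± 0.17 between P7 and P3 (SE, limma adjusted p = 2.48e-04). For NONMMUT028255 it was -0.52 ± 0.14 and -0.89 ± 0.15 (SE, limma adjusted p = 0.0324 and 0.00176). The calls of these 2 rows between P3 and P0 were lost under 17 and 10 of 27 alternatives. Between P7 and P3 each was lost under 1, the low libraries alone. NONMMUT028257 was called in the first step only, a call lost under 16 of 27. NONMMUT028253, NONMMUT028256 and NONMMUT028248 were called in the second only, and lost under 5, 9 and 23 of 27. Whether the steps differ was not tested. In the 11 low libraries alone, where P3 keeps 2 libraries, limma called 0 of the 27 members between P7 and P3, with 4 at an unadjusted p under 0.05, and 29 of all rows. Between P7 and P0 over both ventricles the same libraries gave 11 members called, all lower, NONMMUT028255 among them (log2 change -1.27, limma adjusted p = 0.0005). A test of any change with age called 8 of 17 Airn rows, 0 of 1 Peg13 row and 2 of 9 Gnas rows, against 10.6% of all rows.

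The Peg13 row rose. NONMMUT023869, counted over its whole unspliced span, stood at 0.403, 0.419 and 0.373 FPKM in RV at P0, 0.619, 0.430 and 0.547 at P3, and 0.527 and 0.646 at P7. In LV it stood at 0.412, 0.5 and 0.333 FPKM at P0, 0.338, 0.653 and 0.674 at P3, and 1.06, 0.771 and 0.913 at P7. All 5 P7 libraries were above all 6 P0 libraries, which held for 2.72% of all rows, and the 3 LV libraries at P7 were the highest of the 17. The LV mean was 0.914 ± 0.144 FPKM at P7 against 0.415 ± 0.0834 at P0 (SD, n = 3 each), and the RV mean 0.587 ± 0.0844 at P7 (SD, n = 2) against 0.399 ± 0.0233 at P0 (SD, n = 3).

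The log2 change of Peg13 between P7 and P0 was 0.72 ± 0.21 over both ventricles (SE, limma adjusted p = 0.0217), or 1.01 above the median of all rows. In RV alone it was 0.46 ± 0.32 and not called (SE, limma adjusted p = 0.458). In LV alone it was 0.98 ± 0.28 and called higher (SE, limma adjusted p = 0.0306). The LV call was lost with no filter, in the low libraries and without LV replicate 1 or 3 at P0 or at P7 (limma adjusted p up to 0.125 over its alternatives). The difference between ventricles in that change was -0.52 (95% interval -1.41 to 0.36), which did not pass the test (limma adjusted p = 1). Neither step through P3 was called (log2 change 0.32 between P3 and P0 and 0.40 between P7 and P3; limma adjusted p = 0.41 and 0.312). The row rested on 28 to 89 fragments per library. Without the 6 high libraries, the log2 change over both ventricles was 0.64 and not called (limma adjusted p = 0.0812). Whether unspliced reads of Trappc9 enter the values of this row was not tested.

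In the Gnas window, 4 of 9 rows tested were called lower at P7 than at P0 over both ventricles, and 0 higher, against 16.1% of all rows called lower and 4.41% called higher. Their median log2 change was -0.69, against -0.29 over all rows. With the libraries scaled to the same median, 2 of 9 were called lower, beside 5.95% of all rows. The row of highest level was NONMMUT041628 (chr2:174091930-174092558), a row of 629 bases that ends 14180 bases below the low end of the Nespas row. In GENCODE, the microRNA genes Mir298 and Mir296 lie 13652 to 14190 bases below the low end of Nespas. By spacing, the high end of NONMMUT041628 thus reaches past the low end of Mir296. Whether reads of microRNA precursors enter this row was not tested.

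NONMMUT041628 stood at 9.58, 14.8 and 17.6 FPKM in RV at P0, 6.04, 2.42 and 4.54 at P3, and 1.45 and 5.92 at P7. In LV it stood at 9.87, 14.7 and 17.6 FPKM at P0, 8.01, 5.41 and 9.06 at P3, and 2.91, 4.93 and 6.46 at P7. All P3 and all P7 libraries were below all P0 libraries, while P7 and P3 overlapped. Its log2 change between P7 and P0 was -1.87 ± 0.31 (SE), a 3.65-fold lower level at P7 (limma adjusted p = 3.20e-04). Between P3 and P0 it was -1.30 ± 0.29 (SE, limma adjusted p = 0.0103), and between P7 and P3 -0.56 ± 0.31 and not called (SE, limma adjusted p = 0.334). At P0 the highest value in each ventricle, 17.6 FPKM, was in a high library, and the 4 low libraries held 9.58 to 14.8 FPKM.

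TCONS_00033850, at the position within Gnas, stood at 5.38, 4.66 and 6.97 FPKM in RV at P0, 3.76, 2.22 and 2.53 at P3, and 1.99 and 2.26 at P7. The LV libraries held 9.29, 6.58 and 7.33 FPKM at P0, 3.65, 2.90 and 4.06 at P3, and 2.03, 2.94 and 2.79 at P7. Again P3 and P7 lay below P0 in every library and overlapped each other. Its log2 change was -1.45 ± 0.17 between P7 and P0 (SE, 2.73-fold lower, limma adjusted p = 5.22e-06) and -1.05 ± 0.16 between P3 and P0 (SE, limma adjusted p = 2.56e-04). These 2 rows were the only Gnas rows called between P3 and P0, and between P7 and P3 limma called 0 of 9, with 2 at an unadjusted p under 0.05.

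At the same position, 3 of 6 rows were called lower, and differences between these rows were not tested. NONMMUT041640 stood at 1.33, 1.30 and 1.92 FPKM in RV at P0, 2.54, 1.06 and 2.14 at P3, and 1 and 1.16 at P7. In LV it stood at 3.06, 2.15 and 1.70 FPKM at P0, 3.38, 1.21 and 2.77 at P3, and 2.39, 1.89 and 1.88 at P7. In RV its P7 libraries lay below those of P0, in LV the ages overlapped, and its log2 change between P7 and P0 was -0.28 (95% interval -0.82 to 0.25; limma adjusted p = 0.464). NONMMUT041645 was called lower by 0.86 on the log2 scale (limma adjusted p = 0.018), with 0.616 to 1.16 FPKM at P7 and 1.21 to 2.25 FPKM at P0, and NONMMUT041643 by 1.14 (limma adjusted p = 0.0303), with 0.0465 to 0.162 FPKM at P7 and 0.164 to 0.533 FPKM at P0. These calls were lost under 4 and 11 of 27 alternatives, median scaling among them. TCONS_00033860 was between 0.294 and 0.360 FPKM at P7 and between 0.375 and 0.807 FPKM at P0 and was not called (log2 change -0.59 ± 0.24 SE, limma adjusted p = 0.0842). NONMMUT041642 had a log2 change of -0.67 and was not called either (limma adjusted p = 0.0763).

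At the Nespas row, NONMMUT041634, values were listed at 0 in 16 of 17 libraries, and the remaining library, of RV at P3, held 0.0474 FPKM. With 1 library above 0, the length behind the values is not fixed. The shortest length that fits, 531 bases, was taken, which makes that value 0.5 of a fragment. At that length, a count of 0 allows up to 3 fragments in a library, or 0.275 to 0.41 FPKM, for counting error only. A longer length would lower these limits. Inside the ends of the Nespas row, NONMMUT041635 and NONMMUT041636 rested on 1.5 fragments each over all libraries, for NONMMUT041636 at the shortest length that fits. Below its low end, NONMMUT041631 (chr2:174102056-174105861) rested on 39.5 fragments. NONMMUT041634 and NONMMUT041631 did not pass the filter, so a change of the Nespas row with age was not detectable at this depth.

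**Figure D3:**
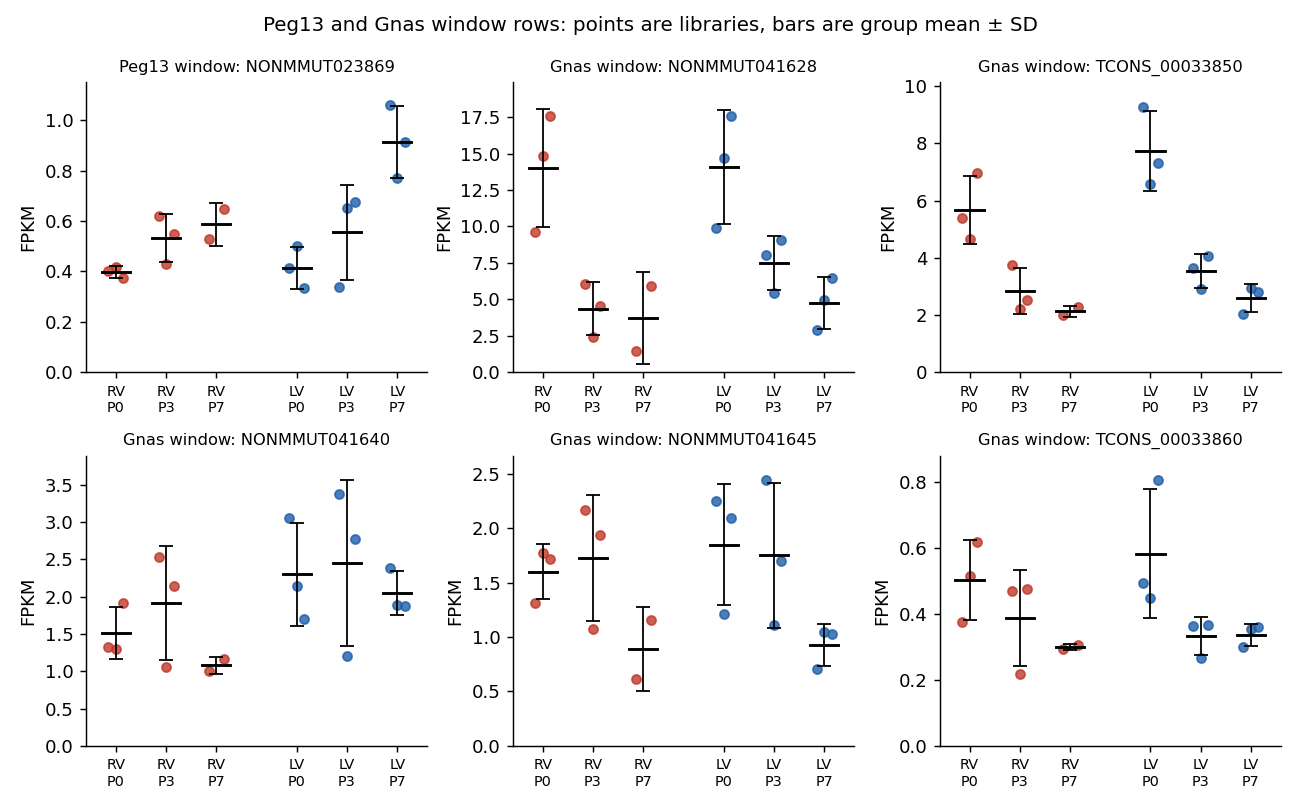
FPKM of the Peg13 row and of the 5 most abundant Gnas window rows in each library (points), with group means and SD (bars), for RV (left, red) and LV (right, blue) at P0, P3 and P7. The Peg13 row is highest in LV at P7 (0.771 to 1.06 FPKM), and TCONS_00033850 is highest at P0 in both ventricles (4.66 to 9.29 FPKM).

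Within each ventricle the age change was called for 9 members in RV (7 Airn and 2 Gnas rows lower, against 3.72% of all rows) and 10 in LV (7 Airn and 2 Gnas rows lower, against 8.64% of all rows, and Peg13 higher, against 2.60%). Of these, 8 rows were called in both ventricles. The median log2 change of the Airn rows was -0.98 in RV and -1.02 in LV, where the median of all rows was -0.27 and -0.32. The RV count rests on 2 libraries at P7. Without RV replicate 1 at P7, 2 members were called in RV. In the test of whether the change differed between RV and LV, 0 of 27 members were called and 2 had an unadjusted p under 0.05 by limma, beside 0 (0%) and 454 of all rows. The 2 were the second NONMMUT028240 row and NONMMUT041636, which rest on 6.5 and 1.5 fragments at the shortest lengths that fit. For NONMMUT028255 the difference in change was -0.13 (95% interval -0.76 to 0.49), so a difference of that order was not resolved.

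**Figure D4:**
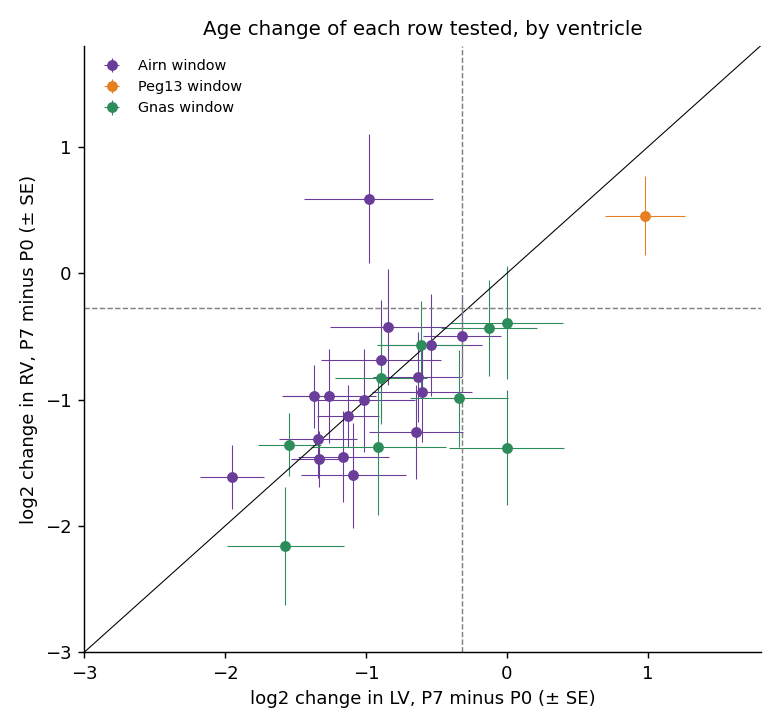
Log2 change between P7 and P0 in RV (vertical axis) against the same change in LV (horizontal axis) for the 27 members tested, with SE bars, the line of equal change and dashed medians of all rows. Most Airn and Gnas rows lie below both medians, and Peg13 lies above both, at 0.46 in RV and 0.98 in LV.

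Between RV and LV over the 3 ages, limma called 0 of 27 members and 1 of all rows (0.00903%). An unadjusted p under 0.05 was reached by 9 members and by 6.90% of all rows. Of the 9, 7 were Airn rows, all higher in RV, and 2 were Gnas rows, both lower in RV. The Airn rows had a median RV to LV log2 difference of 0.33, and 14 of 17 were above 0. TCONS_00024387 averaged 2.94 ± 0.559 FPKM in RV and 1.77 ± 0.399 FPKM in LV at P0 (SD, n = 3 each), and over the ages its log2 difference was 0.51 (95% interval 0.10 to 0.92; limma adjusted p = 0.59). For NONMMUT028254 the difference was 0.07 (95% interval -0.22 to 0.35; limma adjusted p = 0.964). The Gnas row NONMMUT041640 averaged 1.08 ± 0.11 FPKM in RV (SD, n = 2) and 2.05 ± 0.294 FPKM in LV (SD, n = 3) at P7, and over the ages its log2 difference was -0.58 (95% interval -1.0 to -0.15; limma adjusted p = 0.526).

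Among the 7 Airn rows that averaged at least 1 FPKM, Pearson's r of log2(FPKM + 0.1) over the 17 libraries ranged from 0.58 to 0.93 over 21 pairs, with a median of 0.83. These rows share libraries and ages, and whether rows at overlapping positions also share reads was not tested. Outside the windows, the pattern nearest to NONMMUT028255 among 5519 rows was that of NONMMUT071698 (chrX:6730937-6732267, r = 0.952), followed by NONMMUT008609 (chr11:11859615-11863548, r = 0.945). For the Peg13 row it was NONMMUT051831 (r = 0.909) and NONMMUT041218 (r = 0.844), which the files list with no position. For NONMMUT041628 it was NONMMUT016268 (chr13:6591443-6594406, r = 0.946) and NONMMUT046470 (chr4:24825250-24830652, r = 0.941). Shared age and library set enter all of these values.

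Other imprinted noncoding loci were taken from windows around H19, Kcnq1ot1 and the Meg3, Rian and Mirg cluster. These windows were placed from general knowledge of mm9, and the lengths of their rows were not compared with annotated transcripts. The window of H19, a maternally expressed RNA of growing fetal tissue, had 1 row. That row was called lower at P7 than at P0 with a log2 change of -2.48. Of 13 rows tested in the Meg3 cluster, 6 were called lower and 0 higher, with a median log2 change of -0.76, against 16.1% of all rows called lower and a median of -0.29. In the Kcnq1ot1 window, 0 of 3 rows passed the filter. Peg13 was thus the only row called higher among the members and these 3 windows in that comparison.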

How the data were processed

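Total RNA of mouse ventricle was sequenced as strand-specific paired-end libraries, per the labels' protocols. Per the submitters' processing notes, reads were aligned with STAR 2.4.0j to mm10. What counted and scaled the fragments is not stated there. The deposited values, 1 table per library, were read as FPKM by inference, from multiples of 0.5 fragment of a step constant within each library. Value times span fell on such multiples (tolerance 0.005) for 57.0 to 60.5% of low rows per library. For the members, lengths were searched until all libraries fell on such multiples (tolerance 0.02). For 28 of 30 members this gave a counting length and fragments, and for 9 of them that length is the span. The shortest length that fits was taken, so the fragments of rows above 0 in few libraries may be too low. The positions fit mm9, not mm10, and none was converted. For 702 rows no position is listed.

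Samples were grouped by title. Differences were tested in R 4.3.3 with limma 3.58.1 on log2(FPKM + 0.1), with 1 mean for each of 6 groups, a mean-variance trend and robust empirical Bayes. Rows reaching 0.1 FPKM in at least 2 libraries were kept (11079), and p-values, two-sided, were Benjamini-Hochberg adjusted over all of them. The fit was tested on simulated data with independent libraries. Effects of library sets, of shared hearts or of a median shift were not simulated, so the calls were not tested for these. All 30 members are accounted for; described one by one are the 5 most abundant rows of each window and each row called in any comparison. For the most abundant row of each window, the 2 outside rows with the highest r were named, among tested rows at or above the median level. Members and lists were chosen with earlier results of these data known. Alternatives covered pseudocounts, filters, scaling, variance trend, replicate block, summing per position and leaving out libraries. The library sets were defined after seeing the data.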

Additional observations from a re-analysis of the deposited data

How the results depend on the processing

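The 27 calls tested over both ventricles (17 between P7 and P0, 5 between P3 and P0, 5 between P7 and P3) kept their direction under every alternative, and 11 of them stayed called throughout, 10 of these between P7 and P0. Those 10 were 8 Airn rows (NONMMUT028250, NONMMUT028253, NONMMUT028254, NONMMUT028255, NONMMUT028256, NONMMUT028257, TCONS_00024383, TCONS_00024387) and the Gnas rows NONMMUT041628 and TCONS_00033850, the second also between P3 and P0. The number of members called between P7 and P0 over both ventricles was 17, and 11 with median scaling, 11 with values summed per position (15 positions tested) and 11 in the low libraries only. In LV it was 10, and 6 with no filter and 6 in the low libraries. In RV it was 9, and 5 with no filter and 4 in the low libraries. Between P3 and P0 it was 5, and 3 with a pseudocount of 0.01, 2 with no filter, 2 with no variance trend, 8 with the library set as a term and 1 in the low libraries. Between P7 and P3 it was 5, and 3 with no filter, 8 with a filter at 0.5, 2 with median scaling, 2 with no variance trend, 3 with values summed per position, 2 with the library set as a term and 0 in the low libraries (4 at an unadjusted p under 0.05). The test of any change with age gave 10, and 6 in the low libraries. Fewer libraries or positions enter some of these fits; otherwise the cause was not tested.

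Leaving out 1 library gave 12 to 18 calls between P7 and P0 over both ventricles, 6 to 12 in LV, 2 to 10 in RV, 2 to 8 between P3 and P0, 2 to 10 between P7 and P3 and 7 to 11 for any change with age. The lowest count came without RV replicate 1 at P7, except in LV (LV replicate 1 at P7) and between P3 and P0 (RV replicate 3 at P0). Peg13 lost its call over both ventricles with no filter, in the low libraries and without RV replicate 2 at P7, LV replicate 3 at P0 or LV replicate 1 at P7 (log2 change 0.31 to 1.02, adjusted p up to 0.0812 over its alternatives). Between RV and LV, and for the difference in age change, 0 members were called under every alternative.

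Same-numbered LV and RV libraries correlated at 0.045 to 0.172 in their deviations from group means, not above 0.1 in every pair, so the numbers were not taken to pair the samples. With the replicate block, 16 members were called between P7 and P0 over both ventricles, 10 in LV, 9 in RV, 4 between P3 and P0, 4 between P7 and P3, 10 for any change with age and 0 in both comparisons of RV with LV. Depth limits rows under 0.1 FPKM, which rest on a few fragments.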

Other observations

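Ratios were taken between 4 pairs of rows at the same position, chosen after their values were seen and given with no test. The FPKM of NONMMUT028254 over that of NONMMUT028253, both on the whole Airn span, lay between 1.055 and 1.594 at P0, 0.985 and 1.668 at P3, and 0.735 and 1.009 at P7. The P7 and P0 libraries did not overlap in this ratio, in either ventricle. In the Gnas gene, TCONS_00033850 over NONMMUT041640 lay between 3.039 and 4.305 at P0, 1.079 and 2.391 at P3, and 0.848 and 1.989 at P7, so that both later ages lay below P0 in every library. TCONS_00033850 over NONMMUT041645 at that position lay between 2.631 and 5.413 at P0, 1.305 and 2.616 at P3, and 1.947 and 3.237 at P7, and P7 and P0 overlapped. NONMMUT028255 over NONMMUT028256 lay between 3.094 and 4.574 at P0, 3.043 and 4.334 at P3, and 2.661 and 4.272 at P7, and all 3 ages overlapped over both ventricles. In RV alone it lay between 2.69 and 2.948 at P7, below the 3.11 to 4.249 at P0. Whether these rows share reads was not tested.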
